A study of Mus musculus with 9 samples.

Results

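The 9 proneural basic helix-loop-helix (bHLH) genes examined here were Neurog1, Neurog2, Neurod1, Neurod2, Neurod4, Neurod6, Nhlh1, Atoh1 and Ptf1a. They were chosen by gene symbol from a table of 51912 genes, and each of the 9 was matched to its Ensembl identifier. Of these, 7 had reads in at least 1 library, 6 reached the mean normalized count of 5 that was required for testing, and Atoh1 and Ptf1a had no read in any library. The RNA came from midbrains dissected at E14.5 from C57Bl/6 mouse embryos of 3 genotypes, Nkx2.9 +/+ (wild type), Nkx2.9 LacZ/+ (heterozygous) and Nkx2.9 LacZ/LacZ (homozygous knockout). Each genotype had 3 libraries, and each library pooled material of 2 midbrains. In the LacZ allele, a nuclear LacZ takes the place of the first exon of the homeobox gene Nkx2.9, behind the gene's own start codon. The authors report that the reporter in general follows the expression of Nkx2.9. At E14.5 they found its protein more widely than the Nkx2.9 transcript. The columns of the table carry a genotype but no replicate number, and which litter each library came from is not stated, so the p-values measure the spread between these libraries.

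Proneural factors are transcription factors that push dividing neural progenitors to leave the cell cycle and become neurons. They bind DNA as dimers with the broadly present E-proteins, at the motif called the E-box. The neurogenins and Atoh1 and Ptf1a act early, in progenitors or newborn neurons of particular regions, and genes of the Neurod and Nhlh families follow in the cascade as neurons differentiate. In the ventral midbrain Neurog2 is known for its role in the production of dopaminergic neurons. Atoh1 is known from the rhombic lip of the hindbrain, and Ptf1a from the cerebellar ventricular zone and the dorsal hindbrain, where it sets an inhibitory fate.

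The targeted gene could not serve as a check of the labels. For Nkx2.9 (Nkx2-9 in the annotation), 4, 6 and 3 reads were counted under the label LacZ/LacZ, 0, 7 and 4 under LacZ/+ and 0, 2 and 2 under +/+. Its reads were thus no fewer in the libraries labelled LacZ/LacZ than in those labelled +/+ (p = 0.1 in a two-sided exact permutation test, which cannot go lower with 3 libraries a group), and the allele leaves part of the transcript in place. Every direction given here, for proneural genes and for all other genes and markers, is therefore that of the labelled libraries. Reads on genes numbered 5627092, 4522261 and 4921748 in the libraries labelled LacZ/LacZ, 2584074, 4913884 and 5241154 in those labelled LacZ/+ and 1692963, 5942192 and 5808057 in those labelled +/+. Values per library are listed in this same order throughout. A LacZ/+ library and a +/+ library, the first of each group, were thus much shallower than the others. The shallow LacZ/+ library also stood apart in its markers. Its summed normalized count of the 12 midbrain markers was the highest (3077, against 2233 to 2838 in the others), but single markers went both ways. Th, the enzyme of dopamine synthesis, had 187 against 51.2 to 100.5, and En1 had 407 against 157 to 322. Otx2, by contrast, had its lowest value there (205, against 233 to 329). The 6 sensory ganglion markers also had their highest sum there (65.2, against 13.7 to 33.7). Xist, the RNA that coats the inactive X chromosome of female cells, had normalized counts of 4633, 4607 and 5182 under LacZ/LacZ, 2929 in the third LacZ/+ library and at most 79.9 in the other two, and 4342, 2580 and 47.1 under +/+, so it was not balanced between the groups. The title given to the data set speaks of cortical material, whereas the sample labels speak of midbrain. All 12 midbrain genes examined, among them Otx2, En1 and Pax7, averaged 5 normalized counts or more.

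The genes lie on 7 chromosomes of the mouse genome GRCm38, and all 9 are protein coding with 1 annotated transcript. Neurog2 (ENSMUSG00000027967) occupies chr3:127633135-127635631, Neurod1 (ENSMUSG00000034701) chr2:79452521-79456751, Neurod2 (ENSMUSG00000038255) chr11:98325415-98329648 and Neurod6 (ENSMUSG00000037984) chr6:55677822-55681263. Neurog1 (ENSMUSG00000048904) occupies chr13:56250478-56252163, Neurod4 (ENSMUSG00000048015) chr10:130268152-130280240 and Nhlh1 (ENSMUSG00000051251) chr1:172052292-172057573. Atoh1 (ENSMUSG00000073043) lies at chr6:64729125-64731245, on the same chromosome as Neurod6, and Ptf1a (ENSMUSG00000026735) lies at chr2:19445663-19447501, on the same chromosome as Neurod1. Neurog1 and Atoh1 consist of 1 exon and the others of 2. The exons of Neurod1 overlap Cerkl and Gm26755, which had 13 and 3 reads in all libraries together against 640 for Neurod1. The strand setting of the counting is not given in the sources used here.

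Because proneural factors bind E-boxes and often control each other, the 250 bases before the start of each gene were searched for the E-box in the reference sequence (RefSeq, GRCm38.p6). The motif CANNTG reads as itself on both strands, so a single search covers both. It was found before 4 of the 9 genes, namely Neurod1, Neurod2, Neurod6 and Nhlh1, and 66.2% of the 32851 windows of this length before all genes held it. The form CAGATG (or its reverse complement CATCTG) stood before Neurod2 and Nhlh1 and in 14.4% of all windows, and CAGCTG stood before none of the 9 and in 13.0% of all windows. No CANNTG stood in these windows before Neurog1, Neurog2, Neurod4, Atoh1 or Ptf1a, which says only that these letters are not in this stretch. The sites found are shown so that the motif before each of the 4 genes can be read, and no pattern among the families was tested. Each is given on the strand of its gene, with the E-box in capitals and up to 12 bases on either side.
Neurod1, chr2:79456861-79456886, minus strand: gggaagacCATATGgcgcatgccggg
Neurod2, chr11:98329746-98329775, minus strand: agtagagagtgaCAGATGgcggcgggtccc
Neurod2, chr11:98329679-98329708, minus strand: atcaccgtctctCATGTGatagctgctgcc
Neurod2, chr11:98329646-98329674, minus strand: acgtgccaagccCATATGgcctggcatag
Neurod6, chr6:55681408-55681437, minus strand: aagcccaccttgCAAATGaatggaatatta
Neurod6, chr6:55681378-55681407, minus strand: acgactgcctaaCAGTTGcaccattggcag
Nhlh1, chr1:172057782-172057811, minus strand: atgcatggagaaCAGATGtccctgctcccc
The E-boxes of Neurod2 begin 118, 51 and 17 bases before its RefSeq start, those of Neurod6 162 and 132, that of Nhlh1 203 and that of Neurod1 242. The site CATATG occurs before both Neurod1 and Neurod2, and CAGATG before both Neurod2 and Nhlh1.

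The neurogenins were measured at very different levels. Neurog2, which acts in dividing progenitors at the head of the cascade, had normalized counts (reads divided by a size factor of the library) of 89.6, 68.6 and 73.0 in the libraries labelled LacZ/LacZ, 48.9, 67.5 and 82.4 in those labelled LacZ/+ and 82.8, 98.2 and 65.5 in those labelled +/+. The 3 groups overlapped, with means of 77.1 ± 11.1, 66.2 ± 16.8 and 82.2 ± 16.4 (SD, n = 3 each), and the lowest value belonged to the shallow LacZ/+ library. On the scale of log2(normalized count + 1), Neurog2 differed by -0.08 (SE 0.23, limma, unadjusted p = 0.727) between the libraries labelled LacZ/LacZ and +/+, with a 95% confidence interval from -0.57 to 0.41. Between the libraries labelled LacZ/+ and +/+ it differed by -0.32 (SE 0.23, unadjusted p = 0.184). This value was -0.12 (unadjusted p = 0.591) without the shallow LacZ/+ library, -0.18 (unadjusted p = 0.492) without the second +/+ library and -0.17 (unadjusted p = 0.479) with the level of Xist as a covariate. It was -0.49 (unadjusted p = 0.067) without the third LacZ/+ library and -0.47 (unadjusted p = 0.082) without the third +/+ library.

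Neurog1, the close relative that in other regions marks sensory and dorsal progenitors, was near the limit of detection, with 36 reads in all. The libraries labelled LacZ/LacZ held 6, 8 and 4 of them, against 0, 2 and 2 in those labelled LacZ/+ and 0, 9 and 5 in those labelled +/+. The corresponding normalized counts were 4.52, 7.32 and 3.44, then 0, 1.71 and 1.63, then 0, 6.32 and 3.68. Every library labelled LacZ/LacZ thus lay above every library labelled LacZ/+, while the libraries labelled +/+ spanned both. Neurog1 fell under the minimum of 5 (mean 3.18) and was compared in a fit without a minimum, where the libraries labelled LacZ/LacZ were higher than those labelled LacZ/+ by 1.61 (SE 0.81, unadjusted p = 0.058, adjusted p = 0.963; exact permutation test, two-sided, p = 0.1). Both shallow libraries had 0 reads of Neurog1, and a count of 0 there allows up to 3 reads, or normalized counts of 4.89 and 7.76. Neurog1 was the only gene of the 9 whose values did not overlap in any comparison, and it did so in 1 of the 3. Among the 31636 genes with a value above 0, the values did not overlap for 7.02% between LacZ/LacZ and LacZ/+, for 7.53% between LacZ/LacZ and +/+ and for 5.65% between LacZ/+ and +/+.

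Atoh1 and Ptf1a had 0 reads in each of the 9 libraries, which allows at most 3 reads among the 41253425 for either gene. Such limits and intervals cover counting error only. Ptf1aos, a transcript on the opposite strand that overlaps Ptf1a, also had 0 reads, as did Neurog3, Prdm13 and Rbpjl. Prdm13 acts directly downstream of Ptf1a in the dorsal spinal cord, and Rbpjl replaces Rbpj in the Ptf1a complex of the pancreas. Genes that Atoh1 and Ptf1a switch on in their own lineages but that other neurons use as well were nevertheless present. Lhx9 and Barhl1, genes of Atoh1-derived neurons, had mean normalized counts of 798 and 259, and Gad2 and Tfap2b, genes of inhibitory neurons, had 826 and 1832.

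Neurod4 and Nhlh1 are early genes of the cascade, switched on as progenitors become neuronal precursors. Neurod4 had normalized counts of 4.52, 10.1 and 10.3 in the libraries labelled LacZ/LacZ, 3.26, 2.56 and 8.16 in those labelled LacZ/+ and 15.5, 9.82 and 5.89 in those labelled +/+. These rested on 2 to 14 reads per library, and the highest value came from 6 reads in the shallow +/+ library, with an exact 95% Poisson interval from 5.69 to 33.8. The groups overlapped. Between the libraries labelled LacZ/+ and +/+ the log2 difference was -1.05 (SE 0.59, unadjusted p = 0.093), and without the third LacZ/+ library the difference was -1.46 (unadjusted p = 0.039). It was -0.74 (unadjusted p = 0.257) without the shallow +/+ library, -0.60 (unadjusted p = 0.362) without both shallow libraries, -0.63 (unadjusted p = 0.296) with Xist as a covariate and -0.67 (unadjusted p = 0.086) with a pseudocount of 5.

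Nhlh1 had normalized counts of 51.9, 68.6 and 30.1 in the libraries labelled LacZ/LacZ, 44.0, 43.5 and 53.0 in those labelled LacZ/+ and 41.4, 49.8 and 36.1 in those labelled +/+. The libraries labelled LacZ/LacZ held both the highest and the lowest value of all 9. The differences in log2 were 0.17 (SE 0.28) for LacZ/LacZ over +/+, 0.15 for LacZ/+ over +/+ and 0.03 for LacZ/LacZ over LacZ/+, with unadjusted p of 0.551, 0.613 and 0.927.

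Neurod1, which supports the survival and differentiation of young neurons, was the steadiest of the measured members. It had normalized counts of 70.0, 78.7 and 57.5 in the libraries labelled LacZ/LacZ, 71.7, 64.9 and 52.2 in those labelled LacZ/+ and 59.5, 64.6 and 69.9 in those labelled +/+. The coefficient of variation over the 9 libraries was 12.4%, against 19.6% for Neurog2, 34.8% for Neurod6 and 81.6% for Neurog1. These rested on 640, 750, 470 and 36 reads in all. Counting error is part of this spread and is largest for the gene with the fewest reads. Its log2 difference between the libraries labelled LacZ/LacZ and +/+ was 0.08 (SE 0.21, unadjusted p = 0.710), with a 95% confidence interval from -0.36 to 0.52.

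Neurod2, a gene of maturing neurons, had normalized counts of 43.7, 54.0 and 51.5 in the libraries labelled LacZ/LacZ, 50.5, 17.1 and 38.3 in those labelled LacZ/+ and 41.4, 37.2 and 45.6 in those labelled +/+. A single library stood apart, the second labelled LacZ/+, whose 20 reads gave 17.1 with a 95% interval from 10.4 to 26.4. All 8 other libraries lay at or above 37.2. The libraries labelled LacZ/LacZ were higher than those labelled LacZ/+ by 0.60 (SE 0.32, unadjusted p = 0.081). That difference was 0.17 without the low LacZ/+ library and 0.92 (unadjusted p = 0.009) without the shallow LacZ/+ library. In the same way the difference of LacZ/+ from +/+ was -0.35 (unadjusted p = 0.30) with all libraries, 0.09 without the low LacZ/+ library and -0.66 (unadjusted p = 0.049) without the shallow LacZ/+ library.

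Neurod6, which acts in differentiating neurons and marks a subset of midbrain dopaminergic neurons, had the largest difference between the libraries labelled LacZ/LacZ and +/+ among the 6 genes tested with the minimum. Its normalized counts were 72.3, 54.0 and 40.4 in the libraries labelled LacZ/LacZ, 27.7, 56.4 and 52.2 in those labelled LacZ/+ and 20.7, 42.1 and 39.0 in those labelled +/+. The means were 55.5 ± 16, 45.4 ± 15.5 and 33.9 ± 11.6 (SD, n = 3 each). The groups overlapped, since the lowest library labelled LacZ/LacZ lay below the highest labelled +/+. The log2 difference was 0.72 (SE 0.33), or 1.65-fold with a 95% confidence interval from 1.00 to 2.69. The unadjusted p was 0.048, the adjusted p was 1.00 (limma, Benjamini-Hochberg over 16993 genes) and the adjusted p ranged from 0.921 to 1.00 over the alternatives. The exact permutation test gave p = 0.2.

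The 2 lowest values of Neurod6 were those of the 2 shallow libraries, 8 reads in the library labelled +/+ (95% interval from 8.93 to 40.8 normalized counts) and 17 reads in the library labelled LacZ/+. Without the shallow +/+ library the log2 difference between LacZ/LacZ and +/+ was 0.41 (unadjusted p = 0.228), and without both shallow libraries, a choice made after seeing the data, it was 0.41 (unadjusted p = 0.116). In limma the unadjusted p also rose above 0.05 without the first LacZ/LacZ library (difference 0.51, unadjusted p = 0.197), without the second (0.72, unadjusted p = 0.092) and without the third LacZ/+ library, which enters through the shared spread (0.72, unadjusted p = 0.053). It stayed under 0.05 in the other 5 of 9 fits without a library, where the difference was 0.92 (unadjusted p = 0.026) without the third LacZ/LacZ library, 0.90 (unadjusted p = 0.028) without the second +/+ library and 0.85 (unadjusted p = 0.042) without the third. Of 13 other alternatives it stayed under 0.05 in 6. edgeR gave 0.62 (unadjusted p = 0.054) and DESeq2 gave 0.63 (unadjusted p = 0.062) on the recovered reads. With the total reads of each library as a covariate the difference was 0.48 (limma, unadjusted p = 0.075). For LacZ/+ over +/+, Neurod6 differed by 0.41 (unadjusted p = 0.240), and by 0.72 (unadjusted p = 0.037) without the shallow LacZ/+ library. It differed by 0.097 (unadjusted p = 0.769) without the shallow +/+ library and by 0.41 (unadjusted p = 0.144) without both.

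**Figure D1:**
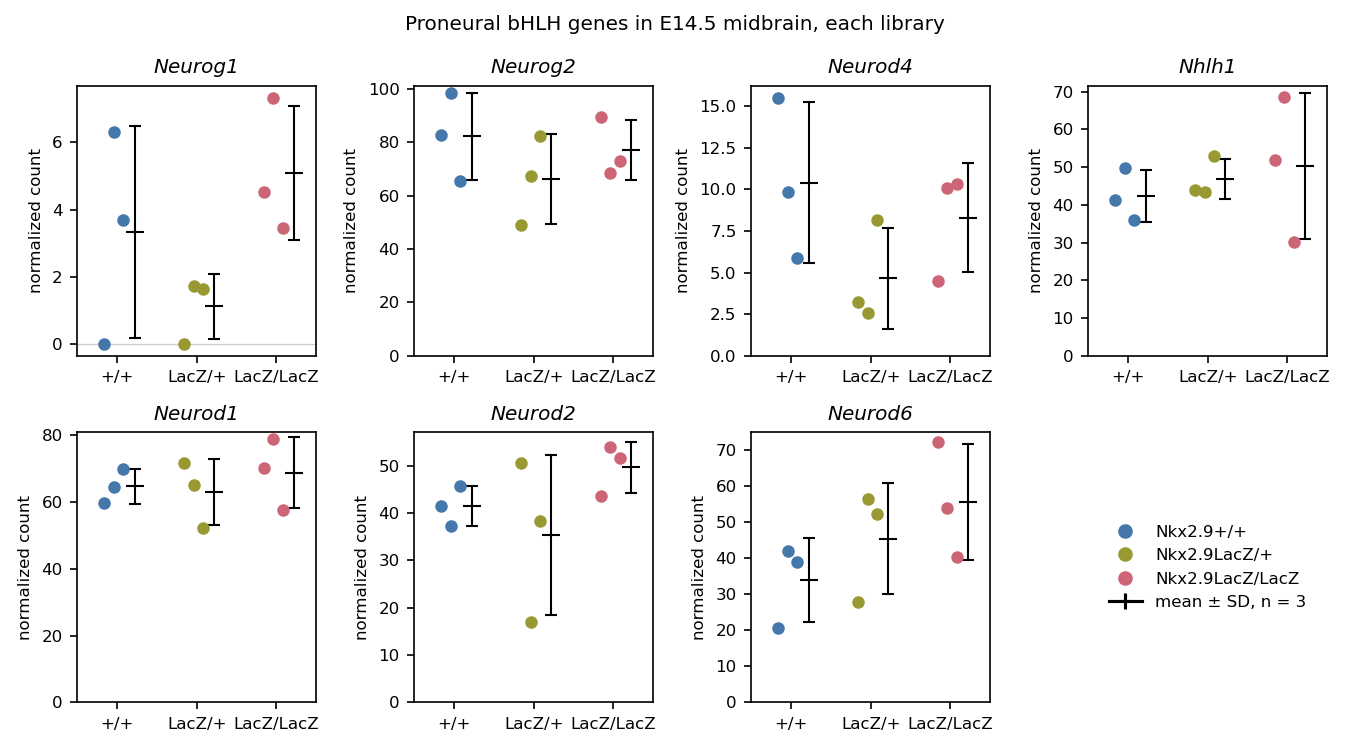
Normalized counts (vertical axis) of the 7 proneural genes with reads, in each library of the 3 labelled genotypes (horizontal axis); coloured points are libraries and the black bars give the mean and SD of 3 libraries. The groups overlap for each gene except Neurog1, where the libraries labelled LacZ/LacZ (3.44 to 7.32) lie above those labelled LacZ/+ (0 to 1.71).

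**Figure D2:**
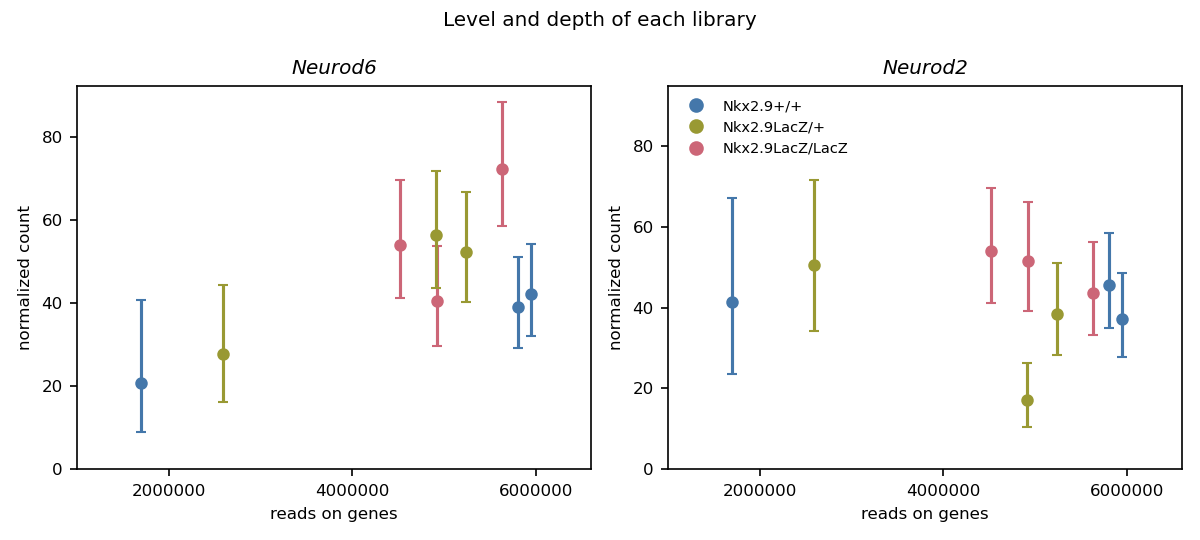
Normalized counts of Neurod6 and Neurod2 (vertical axes) against the reads on genes of each library (horizontal axes); bars are exact 95% Poisson intervals of the reads and colours give the labelled genotype. The 2 shallowest libraries have the lowest Neurod6 values (20.7 and 27.7), while the lowest Neurod2 value (17.1) comes from a library with 4913884 reads.

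Since Neurod2 and Neurod6 are also abundant in neurons of the cerebral cortex, forebrain genes were read beside them. Of 9 such genes, 5 reached a mean normalized count of 5, and the summed normalized count of the list ranged from 131 to 178 in the libraries labelled LacZ/LacZ, from 124 to 221 in those labelled LacZ/+ and from 116 to 181 in those labelled +/+. None of these 5 had an unadjusted p under 0.05 between the libraries labelled LacZ/LacZ and +/+. Tbr1, a transcription factor of cortical projection neurons with 34 reads in all, was named after its values were seen. It had normalized counts of 8.28, 6.40 and 3.44 in the libraries labelled LacZ/LacZ, 3.26, 1.71 and 2.45 in those labelled LacZ/+ and 0, 0 and 3.68 in those labelled +/+ (log2 difference of LacZ/LacZ over +/+ 2.01 in the fit without a minimum, unadjusted p = 0.015). Its part in the values of Neurod6 was not tested. In bulk tissue, fewer cells of a type and less RNA per cell cannot be told apart.

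Over the 3 comparisons, none of the 6 tested genes reached an adjusted p under 0.05. Between LacZ/LacZ and +/+, 4 of the 6 were higher and 2 lower, and 1 of them (Neurod6) had an unadjusted p under 0.05, where 2.60% of the 16993 tested genes had one. Between LacZ/+ and +/+, 2 were higher and 4 lower and 0 had an unadjusted p under 0.05, against 2.78% of all tested genes. Between LacZ/LacZ and LacZ/+ all 6 were higher and 0 had an unadjusted p under 0.05, against 2.64% of all tested genes. These differences ranged from 0.03 for Nhlh1 to 0.77 for Neurod4, and with the level of Xist as a covariate Neurog2, Neurod4 and Nhlh1 were lower instead. In this comparison every library labelled LacZ/LacZ had a higher level of Xist than every library labelled LacZ/+. The median log2 difference of the 6 genes was 0.13, -0.18 and 0.27 in the 3 comparisons in this order, and that of all tested genes was 0.01, -0.01 and 0.02. The comparisons share libraries and are not independent. With all 9 libraries, none of the 16993 tested genes reached an adjusted p under 0.05 in limma or edgeR, where 441, 473 and 449 (limma) and 421, 372 and 451 (edgeR) had an unadjusted p under 0.05. In DESeq2 these were 316, 264 and 323, and 0, 1 and 0 genes reached an adjusted p under 0.05. Without both shallow libraries, limma gave 6, 0 and 0 such genes.

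**Figure D3:**
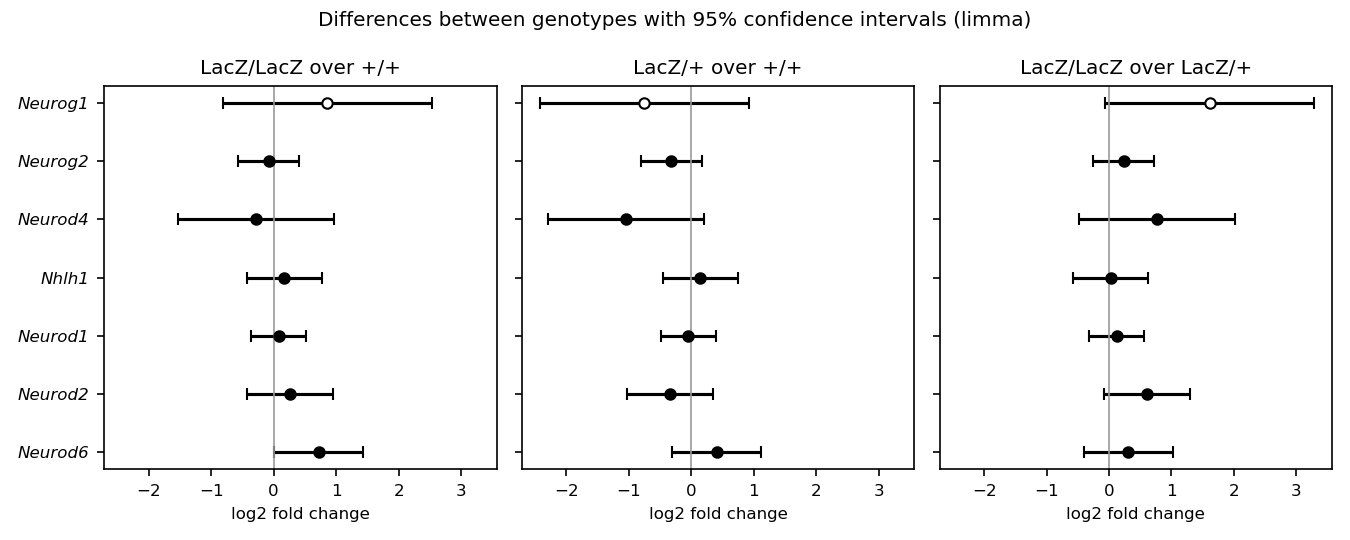
Log2 difference (horizontal axes) of the 7 proneural genes with reads in each of the 3 comparisons of labelled genotypes; points are limma estimates, bars are 95% confidence intervals, and open points mark Neurog1, taken from the fit without a minimum. The interval of Neurod6 for LacZ/LacZ over +/+ (0.01 to 1.43) is the only 1 that leaves out 0.

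To compare the genes with each other, normalized counts were divided by the length of their exons in kilobases. The mean level per kilobase was 33.7 ± 6.62 for Neurog2, 24.0 ± 2.98 for Neurod1, 20.9 ± 7.28 for Neurod6, 18.9 ± 4.52 for Nhlh1 and 13.4 ± 3.52 for Neurod2 (SD over the 9 libraries). Neurod4 followed with 2.33 ± 1.24 and Neurog1 with 1.89 ± 1.54, and Atoh1 and Ptf1a were at 0. The median of 16951 tested genes was 20.4 per kilobase, so the 5 more abundant factors lay between percentiles 39.2 and 64.0 of the tested genes, while Neurod4 lay at percentile 5.96 and Neurog1 at percentile 3.79.

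Neighbours in this order were compared within each library (exact sign-flip permutation test, two-sided, p adjusted over the 6 neighbouring pairs of genes with reads). Neurog2 lay above Neurod1 in 8 of 9 libraries (exact test, mean log2 ratio 0.47, adjusted p = 0.047), and Neurod2 above Neurod4 in 9 of 9 (exact test, mean log2 ratio 2.48, adjusted p = 0.023). Nhlh1 lay above Neurod2 in 8 of 9, which missed the threshold (exact test, mean log2 ratio 0.51, adjusted p = 0.055). The gaps between Neurod1 and Neurod6, between Neurod6 and Nhlh1 and between Neurod4 and Neurog1 did not exceed their spread (exact test, adjusted p = 0.299, 0.637 and 0.637), and genes that are not neighbours in the order were not compared. With 1 library left out, the gap between Neurog2 and Neurod1 reached an adjusted p under 0.05 in 1 of 9 cases (exact test, adjusted p up to 0.094), with a mean log2 ratio from 0.42 to 0.56. The gap between Nhlh1 and Neurod2 also reached it in 1 of 9, without the third LacZ/LacZ library (exact test, mean log2 ratio 0.63, adjusted p = 0.023). The step down to Neurod4 or Neurog1 reached it in all 9.

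Of 12 other bHLH factors of neural progenitors and neurons, 3 had a higher mean level per kilobase than any of the 9 proneural genes. Tal1, which acts with the Gata factors in midbrain inhibitory neurons, had 102 normalized counts per kilobase, Olig1 51.1 and Nhlh2, the close relative of Nhlh1, 42.7. The highest proneural gene, Neurog2, had 33.7. Bhlhe23, Olig2, Bhlhe22 and Tal2 had 28.1, 24.6, 23.6 and 23.2, within the range of Neurog2 to Neurod6. Helt, a factor of midbrain inhibitory progenitors, had 3.57, and Neurog3 was at 0.

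**Figure D4:**
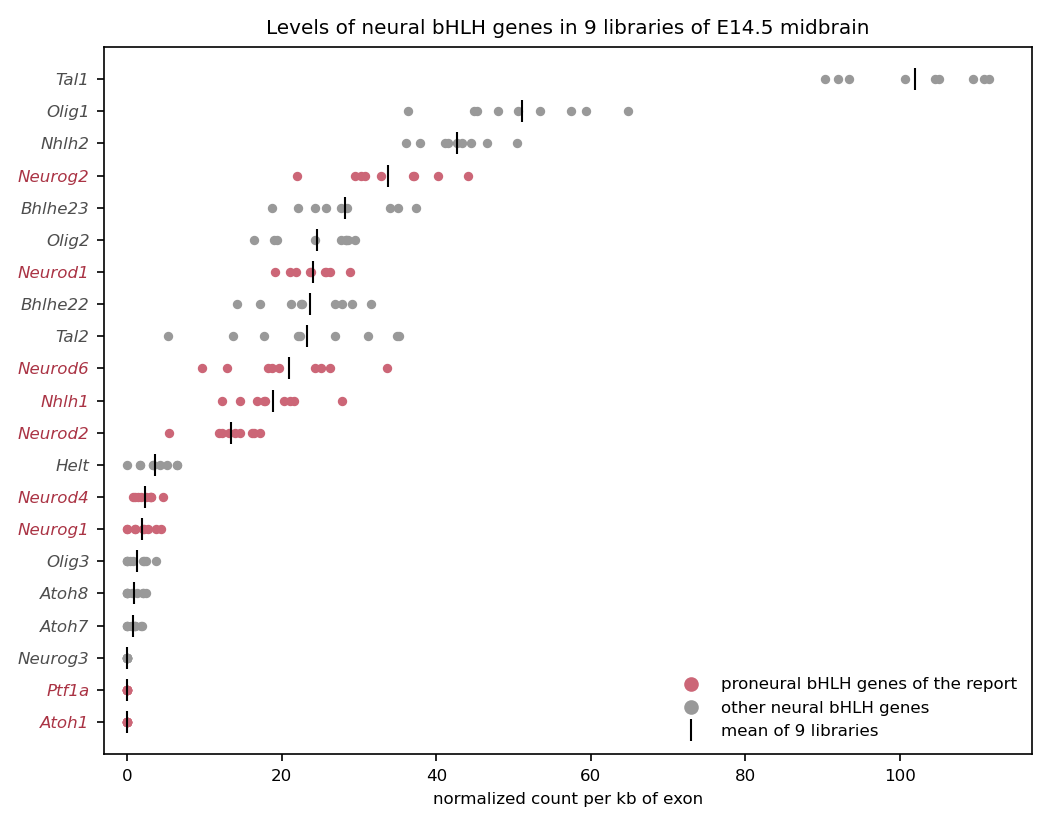
Normalized count per kilobase of exon (horizontal axis) of the 9 proneural genes (red) and 12 other neural bHLH genes (grey), ordered by mean; points are the 9 libraries and black ticks are means. Neurog2 (mean 33.7) is the highest of the 9 and lies below Tal1 (102), Olig1 (51.1) and Nhlh2 (42.7), and Atoh1 and Ptf1a sit at 0.

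The balance between the Neurod and neurogenin families was described by the summed level per kilobase of Neurod1, Neurod2, Neurod4 and Neurod6 over that of Neurog1 and Neurog2. The ratio was 1.74, 2.11 and 1.70 in the libraries labelled LacZ/LacZ, 2.56, 1.80 and 1.53 in those labelled LacZ/+ and 1.32, 1.21 and 1.90 in those labelled +/+. The groups overlapped, with means of 1.85 ± 0.22, 1.96 ± 0.54 and 1.48 ± 0.37 (SD, n = 3 each), and the highest ratio came from the shallow LacZ/+ library, where Neurog2 had 30 reads.

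Genes that work with, against or downstream of the proneural factors were read from 6 lists of 58 genes in all, of which 49 were tested. None reached an adjusted p under 0.05 in any comparison, and 2, 2 and 0 of the 49 had an unadjusted p under 0.05 in the comparisons LacZ/LacZ over +/+, LacZ/+ over +/+ and LacZ/LacZ over LacZ/+ (4.08%, 4.08% and 0%, beside the shares of all tested genes given above). The E-protein partners Tcf3, Tcf4 and Tcf12, with which proneural factors form dimers, had 70.7, 22.1 and 43.3 normalized counts per kilobase. Between the libraries labelled LacZ/LacZ and +/+, Tcf4 was the highest with a log2 difference of 0.18 (SE 0.12) and Tcf3 the lowest with -0.23 (SE 0.17), and 0 of the 3 had an unadjusted p under 0.05 in any comparison.

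Among the Id and Hes inhibitors, which hold E-proteins away from DNA or repress proneural genes, 9 of 10 were tested. Id2 had normalized counts of 135, 117 and 131 in the libraries labelled LacZ/+ and 75.0, 103 and 110 in those labelled +/+, without overlap (log2 difference 0.42, SE 0.20, unadjusted p = 0.050, adjusted p = 1.00). In the libraries labelled LacZ/LacZ it had 121, 79.6 and 99.6, which overlapped both. Hes1, the classical Notch target, had the lowest difference of the list between LacZ/LacZ and +/+ (-0.59, SE 0.33, unadjusted p = 0.088) and Id1 the highest (0.37, SE 0.34). The median difference of the 9 genes was -0.08 in that comparison.

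The neurogenin programme comprised 14 genes that neurogenins are known to switch on, such as the Notch ligand gene Dll1, Hes6, the GTPase gene Rnd2 and the Ebf genes, and all 14 were tested. Their median difference was 0.02 for LacZ/LacZ over +/+, -0.07 for LacZ/+ over +/+ and 0.05 for LacZ/LacZ over LacZ/+. Gadd45g, which is active as progenitors leave the cell cycle, had normalized counts of 58.7, 40.1 and 57.9 in the libraries labelled LacZ/+ and 23.3, 35.8 and 42.0 in those labelled +/+, which overlapped (log2 difference 0.64, SE 0.30, unadjusted p = 0.049, adjusted p = 1.00). Its lowest value came from 9 reads in the shallow +/+ library. Between LacZ/LacZ and +/+, Ebf2 had the highest difference of the list (0.34, SE 0.19) and Eomes the lowest (-0.21, SE 0.59).

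All 6 genes of the Atoh1 lineage were tested although Atoh1 itself had no read. Rab15, a GTPase gene known as a target of Atoh1, had normalized counts of 157, 183 and 146 in the libraries labelled LacZ/LacZ and 261, 210 and 165 in those labelled +/+, which overlapped (log2 difference -0.37, SE 0.17, unadjusted p = 0.045, adjusted p = 1.00). Of the Ptf1a lineage 8 of 12 genes were tested, and differences between LacZ/LacZ and +/+ ranged from -0.46 (SE 0.33) for Tfap2a to 0.14 (SE 0.15) for Rbpj, the DNA-binding partner of Ptf1a that all Notch-responsive cells use. Among the other bHLH factors, 9 of 13 were tested. Olig1, known from progenitors of the oligodendrocyte lineage, had normalized counts of 104, 78.7 and 97.9 in the libraries labelled LacZ/LacZ and 124, 128 and 116 in those labelled +/+, without overlap (log2 difference -0.40, SE 0.18, unadjusted p = 0.045, adjusted p = 1.00).

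Markers of dissection and cell make-up were read in the same libraries. The 6 markers of sensory ganglia, where Neurog1 and Neurod1 are also active, had at most 28 reads of any gene in a library, and Runx3 had 2 reads in all. Of the 8 markers of the rostral hindbrain 4 reached a mean of 5, with Hoxb2 at 0 reads and Hoxa2 at 2. Of these 4, 1 had an unadjusted p under 0.05, Tph2, the enzyme of serotonin synthesis in neurons, which was lower in the libraries labelled LacZ/LacZ than in those labelled +/+ (log2 difference -1.75, unadjusted p = 0.002) and LacZ/+ (-1.01, unadjusted p = 0.044). The 7 markers of progenitors and the 7 of postmitotic neurons were all tested, and 0 of each had an unadjusted p under 0.05 in any comparison. The summed normalized count of the progenitor markers ranged from 2594 to 3366 in the libraries labelled LacZ/LacZ, from 2892 to 2939 in those labelled LacZ/+ and from 2972 to 3388 in those labelled +/+. That of the postmitotic neuron markers was lowest in the shallow LacZ/+ library (25427) and the shallow +/+ library (27855), against 29508 to 32010 in the others. These 2 libraries also had the lowest values of Neurod6. The list was not uniform. Map2, Dcx, Stmn2 and Elavl4 were lowest in both, but Elavl3 was highest in both (2824 and 2894, against 2335 to 2658 in the others). Tubb3 was highest in the shallow LacZ/+ library, where Snap25 was lowest. The part of these markers in the values of Neurod6 was not tested. Of the 12 midbrain markers, 3 had an unadjusted p under 0.05 between LacZ/LacZ and +/+, where 2.60% of all tested genes had one, namely En1 (-0.60), Pax7 (-0.63) and Pitx3 (-0.71), each lower in the libraries labelled LacZ/LacZ. The median difference of the 12 was -0.02, and 0 of them were higher with such a p. Some went the other way. Nr4a2 had normalized counts of 388, 334 and 315 in the libraries labelled LacZ/LacZ and 259, 357 and 284 in those labelled +/+, which overlapped. The part of these 12 markers in the values of the proneural genes was not tested.

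The genes most like each proneural gene over the 9 libraries were taken as the 2 with the highest Pearson r of log2(normalized count + 1) among about 12489 genes with a mean of at least 20. For Neurog2 these were Nfatc2ip (r = 0.96) and Thap12 (r = 0.95), for Neurod1 Nxph1 (r = 0.93) and Sorcs1 (r = 0.91), and for Neurod2 Tas1r3 and Aifm2 (r = 0.94 each). For Neurod6 they were Tmem167b and Coa5 (r = 0.96 each), for Neurod4 Kctd3 and Zfp623 (r = 0.92 each) and for Nhlh1 Vrk3 (r = 0.90) and Gm5844 (r = 0.89). No proneural gene was among those most like another. Among the 15 pairs of the 6 genes, r ranged from -0.40 (Neurog2 and Neurod1) to 0.52 (Neurog2 and Neurod4). With the mean of each genotype taken out, r ranged from -0.63 (Neurod1 and Neurod4) to 0.54 (Neurog2 and Neurod6), and Neurog2 and Neurod4 had 0.30. These values are descriptive, since the points share library depth, 9 libraries are few, and the highest of many correlations was taken.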

How the data were processed

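RNA of the dissected midbrains was freed of ribosomal RNA, read as paired ends, mapped to the mouse genome (Hisat2, GRCm38/mm10), and counted per gene with featureCounts. The signal that the authors deposited for each gene and library is a count divided by a DESeq2 size factor. The authors' deposited comparisons (log2 fold changes, standard errors, scores and p-values) were not used. Of 51912 identifiers, 51633 matched the annotation (279 did not). Dividing each library by its smallest step gave back whole reads for 100% of 210686 values above 0 (tolerance 0.001 reads).

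The proneural genes, lists and tests were chosen with earlier results of these data known. Genotypes were compared by a single limma fit of all 9 libraries (limma 3.58.1, R 4.3.3, eBayes with a trend, two-sided) to log2(normalized count + 1). Adjusted p-values follow Benjamini-Hochberg over 16993 genes with a mean of at least 5. Fold changes on this scale understate those of low genes. Exact permutation tests (SciPy 1.17.1) of 3 against 3 libraries reach p = 0.1 at best. Of 8 neighbouring pairs planned for the test of the level order, those with Atoh1 or Ptf1a were left out after seeing the data, since reads of 0 in every library fix their outcome. Named beyond the members were the 2 most alike genes (mean at least 20) and, per list, genes with an unadjusted p under 0.05, otherwise the highest and lowest of LacZ/LacZ over +/+. Midbrain, forebrain and other tissue markers were named as checks. Some genes of the lists are not reported here by themselves. Alternatives used edgeR 4.0.16 and DESeq2 1.42.0 on recovered reads. The fits were tested on simulated data. Figures used matplotlib 3.10.9.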

Additional observations from a re-analysis of the deposited data

How the results depend on the processing

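Of 393 values of single proneural genes under alternatives, 356 kept their direction and side of an unadjusted p of 0.05, 20 turned direction, 11 lost and 6 gained such a p. All 11 losses were of Neurod6 in LacZ/LacZ over +/+, the only value with such a p, which kept it in 5 of 9 fits without a library and 6 of 13 others. None of the 6 tested genes reached an adjusted p under 0.05 in any (lowest 0.796). No paired analysis was possible because the columns carry no replicate numbers. Without a minimum, 1135, 1137 and 1132 genes had an unadjusted p under 0.05 in LacZ/LacZ over +/+, LacZ/+ over +/+ and LacZ/LacZ over LacZ/+. A minimum of 20 gave 263, 242 and 288, and leaving out both shallow libraries 705, 852 and 972. For LacZ/+ over +/+, DESeq2 gave 264, an Xist covariate 298, a total-reads covariate 790 and a fit of these genotypes only 283. Leaving out each library gave 283 to 835, 376 to 936 and 293 to 741, and 1 to 2 neighbouring pairs of the level order past an adjusted p of 0.05 in place of 2, where fewer libraries raise the smallest possible p. In the same fits, the values that turned ranged, for LacZ/LacZ over +/+, from -0.23 to 0.055 (Neurog2), -0.023 to 0.20 (Neurod1), -0.60 to 0.061 (Neurod4) and -0.087 to 0.50 (Nhlh1). For LacZ/+ over +/+ they ranged from -0.15 to 0.079 (Neurod1) and -0.66 to 0.091 (Neurod2), and for LacZ/LacZ over LacZ/+ from -0.00074 to 0.25 (Neurod1), -0.0059 to 0.51 (Neurod6) and -0.23 to 0.35 (Nhlh1). Without both shallow libraries, Neurod4 was at 0.033 for LacZ/LacZ over +/+, and Neurod6 at -0.0059 and Nhlh1 at -0.015 for LacZ/LacZ over LacZ/+. With the Xist covariate, Neurog2, Neurod4 and Nhlh1 were at -0.068, -0.10 and -0.18 there. The cause was not tested. Neurog1 and Neurod4 rested on 0 to 9 and 2 to 14 reads per library, and Atoh1 and Ptf1a had 0.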
